A study of Mus musculus with 6 samples.

Results

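The genes described here make the proteins that prepare and start DNA replication origins. They are the 6 subunits of the origin recognition complex (Orc1, Orc2, Orc3, Orc4, Orc5 and Orc6), the helicase loaders Cdc6 and Cdt1, the licensing inhibitor geminin (Gmnn) and the kinase subunit Dbf4. They were taken from the table by symbol, by a rule that uses no measured value. The table held 24062 genes, and all 10 were in it and among the 16904 genes that were tested.

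RNA was sequenced from whole mouse retinae at postnatal day 21, in mice labelled C57BL/6 (C57BL/6N in the study's methods), with 3 retinae in each of 2 groups. Rb1/p107 DKO retinae carried Chx10-Cre with floxed Rb1 (Rb1 lox/lox) on a germline p107-/- background. Rb1/p107/Hells TKO retinae carried the same alleles and, in addition, floxed Hells (Hells lox/lox), which encodes a chromatin remodeler of the SNF2 family. The Cre acts in retinal progenitor cells in a mosaic pattern, so each retina also held cells that did not recombine, and only p107 was missing from every cell. The comparison asks how the mRNA of the licensing genes differed when Hells was removed in addition to Rb1 and p107. The labels do not say whether the retinae of a group came from separate animals, so the p-values measure the spread between these retinae, which may be partly technical.

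The origin recognition complex binds DNA at replication origins. From the end of mitosis and through G1, it works with Cdc6 and Cdt1 to load the MCM helicase, a step called licensing. Geminin binds Cdt1 in S phase and G2 so that origins are not licensed again, and Dbf4 activates the kinase Cdc7, which phosphorylates loaded MCM so that origins can fire. Several of these genes are known targets of the E2F transcription factors, which RB1 and p107 restrain, and in a mature retina most neurons have left the cell cycle.

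Promoter sequences are shown because E2F sites are a known link between several of these genes and the RB family. Rb1 and p107 were targeted in both groups, so the 2 groups do not differ in that respect. RefSeq promoters (GRCm38.p6, 250 bases before to 50 bases after the annotated start) were present for 9 of the 10 genes, all but Gmnn. They were searched on both strands for the E2F forms TTTCCCGC, TTTCGCGC, TTTGCCGC and TTTGGCGC, and for TTTGAA and TTCGAA, forms of the CHR element found in genes expressed late in the cell cycle. No E2F form contains a CHR form. The lines give the 150 bases just before the start for Orc1 (chr4:108579304-108579453, plus strand), Cdc6 (chr11:98908001-98908150, plus strand), Orc3 (chr4:34614943-34615092, minus strand) and Dbf4 (chr5:8422717-8422866, minus strand), and bases 21 to 50 after the start for Cdt1 (chr8:122568035-122568064, plus strand). All run 5′ to 3′ on the gene's strand, and capitals mark an E2F form or its reverse complement.
Orc1: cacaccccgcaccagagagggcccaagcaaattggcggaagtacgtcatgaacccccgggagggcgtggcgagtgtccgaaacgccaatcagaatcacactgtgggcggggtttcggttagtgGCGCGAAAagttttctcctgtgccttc
Cdc6: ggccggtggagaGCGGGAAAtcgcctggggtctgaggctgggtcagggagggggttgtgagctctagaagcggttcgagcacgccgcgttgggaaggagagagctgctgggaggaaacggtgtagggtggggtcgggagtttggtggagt
Orc3: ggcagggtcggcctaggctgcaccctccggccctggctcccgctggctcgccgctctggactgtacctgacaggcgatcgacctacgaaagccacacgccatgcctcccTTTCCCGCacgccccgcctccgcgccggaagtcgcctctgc
Dbf4: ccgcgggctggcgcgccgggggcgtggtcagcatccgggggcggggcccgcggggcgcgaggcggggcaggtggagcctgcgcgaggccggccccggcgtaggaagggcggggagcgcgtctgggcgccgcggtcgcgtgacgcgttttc
Cdt1: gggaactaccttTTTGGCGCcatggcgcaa

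Counted from the start, with -1 as the base before it, the match lay at -27 to -20 in Orc1 and at -138 to -131 in Cdc6, both on the minus strand relative to the gene. In Orc3 it lay at -41 to -34 and in Cdt1 at 33 to 40, both on the gene's own strand. These starts are those of RefSeq. The gene positions given below are from GENCODE, which begins Cdc6 at base 98907801 and Orc1 at base 108579423. The matches of Cdc6 and Orc1 therefore lie inside the genes as GENCODE draws them. The windows of Orc2, Orc4, Orc5, Orc6 and Dbf4 held no E2F form, and Dbf4 held a CHR form across its start, at -3 to 3. Of all 27025 genes with a promoter entry, 2.6% had an E2F form and 21.7% had a CHR form in such a window. A match is a run of letters and not a measured binding site, and no match says only that these letters were not in the window. Of the genes with an E2F match, Orc1, Cdc6 and Cdt1 were lower in TKO retinae and Orc3 barely differed (log2 fold change -0.06). Of those without, Dbf4 (-2.43) and Orc6 (-0.82) were lower, and Orc2, Orc4 and Orc5 barely differed. Whether a match goes with a difference was not tested.

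For the series as a whole, library totals ran from 10343907 to 14203098 counts on genes, and retinae of 1 group differed beyond counting noise (chi-square over its degrees of freedom, 8.61 to 25.3). Counts are given as normalized counts, divided by each library's TMM-scaled size relative to the mean of the 6. Hells had 60.8 to 83.4 normalized counts in the TKO libraries and 395 to 678 in the DKO libraries, so it was lower in every TKO library. Its counts also include exons outside the deleted part, so they do not show the deletion itself. Rb1 was higher in TKO retinae by 0.34 on the log2 scale (edgeR, adjusted p = 0.0388) and Rbl1, the gene of p107, differed by 0.13 (edgeR, adjusted p = 0.839). Both kept reads in every library, and counts on a gene include exons outside the deleted part, so they check nothing. All 8 rod markers were higher in TKO retinae, and their summed level was 331007 to 675803 in TKO and 112370 to 213083 in DKO libraries. TKO replicate 2 stood apart in lens genes, with a sum of 3010 over 7 genes against 472 and 561 in the other TKO libraries and 104 to 105 in DKO libraries.

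The licensing genes split into those that were lower in the TKO retinae and those that barely differed. Dbf4, Cdc6, Gmnn, Cdt1, Orc1 and Orc6 had lower mRNA in every TKO retina than in any DKO retina, with TKO means between 18.5% and 56.8% of the DKO means. Orc2, Orc3, Orc4 and Orc5, which form the core of the complex, overlapped between the groups, with TKO means between 89.6% and 117% of the DKO means. With the study's criteria (an adjusted p no higher than 0.05, a log2 fold change of 1 or more in either direction, and a mean normalized count no lower than 10), 5 of the 10 were called lower, against 4.38% of all genes tested, and 0 were called higher. By the adjusted p alone 6 of the 10 were lower, against 9.2% of all genes, and 6 of the 10 had every TKO library below every DKO library, against 20.6% of all genes. The median log2 fold change was -1.03 over the 10 genes and -0.01 over all genes. In whole tissue, fewer cells of a type and less RNA per cell cannot be told apart. The number called lower stayed at 5 without TKO replicate 3 or DKO replicate 3, was 3 without TKO replicate 1, and was 1 when TKO replicate 2, DKO replicate 1 or DKO replicate 2 was left out. The gene left in those fits was Dbf4.

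**Figure D1:**
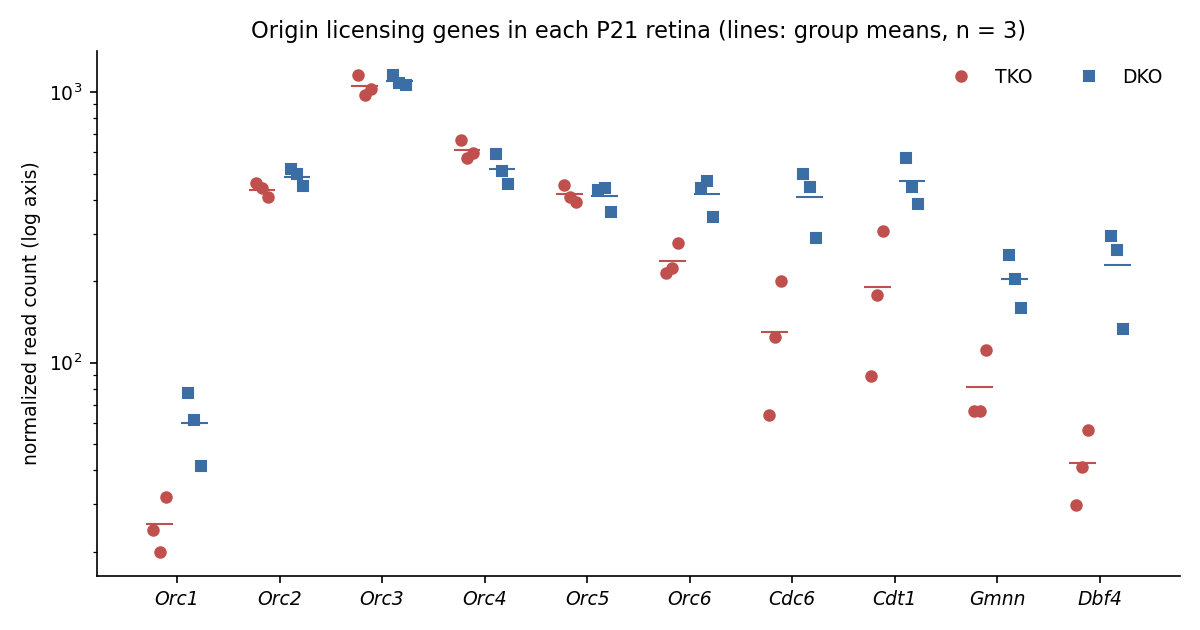
Normalized read counts (log axis) of the 10 licensing genes, with 1 point for each retina and a line at the mean of each group of 3. TKO points are red circles and DKO points blue squares, and the colors separate fully for Orc1, Orc6, Cdc6, Cdt1, Gmnn and Dbf4 and mix for Orc2 to Orc5.

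Orc1 (ENSMUSG00000028587) lies on chr4:108579423-108614833 of GRCm38, on the plus strand. It is the ATP-binding subunit whose protein level is regulated through the cell cycle in mammalian cells. TKO replicates 1, 2 and 3 had 24.1, 20.0 and 31.9 normalized counts, and DKO replicates 1, 2 and 3 had 77.2, 61.3 and 41.4. Every TKO retina was below every DKO retina, and the closest retinae were TKO replicate 3 and DKO replicate 3. The means were 25.3 ± 6.05 and 60.0 ± 17.9 (SD, n = 3 each), and the log2 fold change was -1.24 (95% confidence interval -1.96 to -0.53, adjusted p = 0.0313 from the quasi-likelihood test of edgeR). Orc1 had the fewest reads of the subunits, and the raw counts of the 2 closest retinae, 26 and 48, had exact Poisson 95% intervals of 16.98 to 38.1 and 35.4 to 63.6, which overlap and cover counting error only. Orc1 also shares 376 bp of exon with Gm12743 on the opposite strand, so its counts are less certain where the counting did not use strand. The adjusted p from edgeR rose to 0.0901 when TKO replicate 1 was left out, to 0.115 when TKO replicate 2 was, to 0.107 when DKO replicate 1 was and to 0.101 when DKO replicate 2 was.

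The subunits Orc2 to Orc5 stay together as a stable core in mammalian cells, and their mRNA did not differ beyond the spread between retinae. Orc2 (chr1:58462771-58505109, minus strand) had 460, 441 and 409 normalized counts in the TKO and 518, 496 and 448 in the DKO retinae, a log2 fold change of -0.16 (95% confidence interval -0.38 to 0.07, adjusted p = 0.296 from edgeR). The lowest DKO value lay inside the TKO range. Orc3 (chr4:34570796-34614944, minus strand) had 1161, 979 and 1027 in the TKO and 1159, 1076 and 1065 in the DKO retinae, a log2 fold change of -0.06 (-0.26 to 0.14, adjusted p = 0.677 from edgeR). It had the highest count of the 10 genes and nearly full overlap between the groups. Orc4 (chr2:48902824-48950277, minus strand) had 663, 569 and 594 in the TKO and 589, 510 and 459 in the DKO retinae, a log2 fold change of 0.23 (-0.03 to 0.49, adjusted p = 0.200 from edgeR). Orc5 (chr5:22486485-22550429, minus strand) had 454, 410 and 394 in the TKO and 434, 444 and 359 in the DKO retinae, a log2 fold change of 0.03 (-0.24 to 0.29, adjusted p = 0.900 from edgeR). All 4 intervals included 0 and lay between -0.38 and 0.49. Summed, Orc2 to Orc5 gave 2520 ± 188 normalized counts in the 3 TKO and 2519 ± 184 in the 3 DKO retinae (SD). With library totals alone as the scaling, the median of all genes moved to -0.17 and Orc5 was at -0.14, so its sign followed the scaling. Exons of Orc2 and Orc4 overlap exons of genes on the opposite strand (1150 bp with Nif3l1 for Orc2, 446 bp with Acvr2a and 136 bp with Mbd5 for Orc4), so their counts are less certain where the counting did not use strand. Orc5 shares 90 bp with the pseudogene Gm15421 on the same strand, where reads cannot be told apart by strand.

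Orc6 (ENSMUSG00000031697, chr8:85299632-85308278, plus strand) is the smallest subunit, is bound less tightly to the core in mammals, and also has a role in cell division. TKO replicates 1, 2 and 3 had 214, 223 and 276 normalized counts, and DKO replicates 1, 2 and 3 had 443, 468 and 345. The groups did not overlap. The means were 238 ± 33.4 and 419 ± 65.0 (SD, n = 3 each), and Orc6 fell by 0.82 on the log2 scale (95% confidence interval -1.17 to -0.46, adjusted p = 0.0124 from edgeR), short of the minimum fold change, so it was not among the 5 called. Its adjusted p from edgeR was above 0.05 without TKO replicate 2 (0.0617), DKO replicate 1 (0.0542) or DKO replicate 2 (0.0597). Orc6 shares 171 bp of exon with Vps35 on the opposite strand, and Vps35 itself differed by 0.04 on the log2 scale (edgeR, adjusted p = 0.780).

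The mRNAs of Cdc6 and Cdt1, whose proteins bring the MCM helicase to the complex, were both lower in the TKO retinae. For Cdc6 (ENSMUSG00000017499, chr11:98907801-98923940, plus strand), TKO replicates 1, 2 and 3 gave 64.2, 124 and 200 normalized counts, against 498, 446 and 289 for DKO replicates 1, 2 and 3. The TKO values spread over a more than 3-fold range, yet all lay below the lowest DKO value. The means were 129 ± 68.1 and 411 ± 109 (SD, n = 3 each), and the log2 fold change was -1.67 (95% confidence interval -2.50 to -0.84, adjusted p = 0.0191 from edgeR). Cdt1 (ENSMUSG00000006585, chr8:122568015-122573554, plus strand) had 89.4, 178 and 306 in the TKO and 572, 446 and 387 in the DKO retinae. Again TKO replicate 1 was the lowest and TKO replicate 3 the nearest to the DKO retinae. The means were 191 ± 109 and 468 ± 94.7 (SD, n = 3 each), and the log2 fold change was -1.30 (-2.13 to -0.46, adjusted p = 0.0447 from edgeR). The adjusted p of Cdc6 from edgeR was 0.0801 when TKO replicate 2 was left out, 0.0738 when DKO replicate 1 was and 0.0753 when DKO replicate 2 was. That of Cdt1 was 0.0609 when TKO replicate 1 was left out, 0.141 when TKO replicate 2 or DKO replicate 1 was, 0.114 when DKO replicate 2 was, and 0.0952 with robust dispersion estimates.

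Gmnn, the gene of geminin, the inhibitor that binds Cdt1, was also lower, with a log2 fold change near that of Cdt1. For Gmnn (ENSMUSG00000006715, chr13:24751845-24761923, minus strand), TKO replicates 1, 2 and 3 gave 66.5, 66.3 and 112 normalized counts, against 249, 203 and 159 for DKO replicates 1, 2 and 3. No TKO retina reached the lowest DKO retina. The means were 81.5 ± 26.1 and 204 ± 45.3 (SD, n = 3 each), and the log2 fold change was -1.33 (95% confidence interval -1.91 to -0.74, adjusted p = 0.0132 from edgeR). The adjusted p from edgeR was 0.0622 when TKO replicate 2 was left out, 0.0559 when DKO replicate 1 was and 0.0560 when DKO replicate 2 was.

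Dbf4, the regulatory subunit that Cdc7 needs for activity, had the largest difference of the 10 genes in this fit. For Dbf4 (ENSMUSG00000002297, chr5:8396973-8422716, minus strand), TKO replicates 1, 2 and 3 gave 29.8, 41.0 and 56.5 normalized counts, against 294, 260 and 133 for DKO replicates 1, 2 and 3. The lowest DKO retina, replicate 3, still lay clear of the highest TKO retina. The means were 42.4 ± 13.4 and 229 ± 84.7 (SD, n = 3 each), so the TKO mean was 5.39-fold lower, with a log2 fold change of -2.43 (95% confidence interval -3.22 to -1.64, adjusted p = 0.00700 from edgeR). It was the only one of the 10 that kept an adjusted p under 0.05 in all 6 fits that left out 1 retina (0.00267 to 0.0401 from edgeR).

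**Figure D2:**
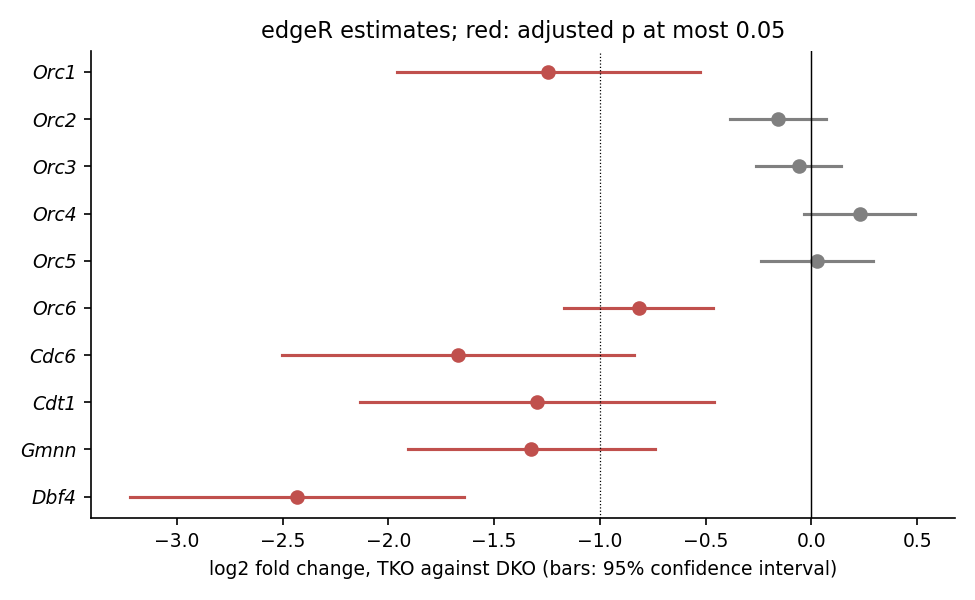
Log2 fold change of TKO against DKO for each licensing gene from edgeR (points), with 95% confidence intervals (bars) and a dotted line at -1, the minimum fold change for a call. The estimates run from -2.43 for Dbf4 to 0.23 for Orc4, and the intervals of Orc2 to Orc5 cross 0.

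The retinae of a group differed from each other in a similar order for the genes that fell. Among those 6 genes, TKO replicate 3 had the highest TKO value in 6 and DKO replicate 3 the lowest DKO value in 6, so these 2 retinae lay nearest to each other. DKO replicate 1 was the highest DKO retina in 5 of the 6 and TKO replicate 1 the lowest TKO retina in 4. The other 4 genes shared the DKO order, with DKO replicate 3 the lowest in 4 and DKO replicate 1 the highest in 3, but not the TKO order, since TKO replicate 1 was the highest in 4. Summed marker genes of dividing cells had the same order of retinae as Cdc6, Cdt1 and Dbf4. All 10 mitotic markers (Mki67, Top2a, Ccnb1, Bub1, Aurkb, Plk1, Birc5, Nusap1, Tpx2 and Cenpf) were called lower, none was at 0, and their summed normalized counts were 585, 1018 and 2272 for TKO replicates 1, 2 and 3 against 12014, 8705 and 5485 for DKO replicates 1, 2 and 3. The summed rod markers ran the other way in both groups, with TKO replicate 3 the lowest TKO retina (331007) and DKO replicate 3 the highest DKO retina (213083). The part of cell makeup in the differences of the licensing genes was not tested.

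Other marker lists also moved. Of 6 genes listed as retinal progenitor markers, Sox2 and Hes5 were called lower and Lhx2 passed the adjusted p alone. The sum of the 6 was 864 to 1324 in TKO and 1751 to 2041 in DKO libraries. Whether these genes mark progenitors alone at postnatal day 21 was not tested. Fgf15, 1 of that list, was at 0 in TKO replicate 1. Of 6 microglia markers, Csf1r, Cx3cr1, C1qa and Aif1 were called lower, while P2ry12 and Tmem119 did not pass the test, and the sum was 872 to 1453 in TKO and 1816 to 2698 in DKO libraries. Among 6 Muller glia markers Glul was called higher, Rlbp1 was higher and Apoe lower by the adjusted p alone, with sums of 70331 to 74238 in TKO and 59921 to 65348 in DKO libraries. The lens list had 3 of 7 genes called higher, of which Cryaa had the highest count, with Lim2 at 0 in the DKO libraries and in TKO replicate 1. None of 5 ganglion cell genes was called (Sncg had the highest count), and their sums barely separated, at 4539 to 4901 in TKO and 3513 to 4535 in DKO libraries. In the blood list the 4 globin genes were at 0 in every library and Alas2 was called higher. The part of these cells in the licensing genes was not tested.

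Per kilobase of merged exon and per 1e6 reads, the level of the licensing genes followed a different order in the 2 groups. In TKO retinae the mean level was 13.7 for Orc3, 8.95 for Orc2, 7.62 for Orc6, 6.45 for Orc4, 5.38 for Orc5, 4.81 for Cdt1, 4.40 for Gmnn, 1.96 for Cdc6, 0.576 for Orc1 and 0.384 for Dbf4. Neighbors in that order differed beyond their ranges only between Orc3 and Orc2, Orc4 and Orc5, Gmnn and Cdc6, and Cdc6 and Orc1. In DKO retinae it was 14.3 for Orc3, 13.4 for Orc6, 11.8 for Cdt1, 11.0 for Gmnn, 9.99 for Orc2, 6.22 for Cdc6, 5.51 for Orc4, 5.29 for Orc5, 2.07 for Dbf4 and 1.36 for Orc1. There the ranges of neighbors were apart only between Orc2 and Cdc6 and between Orc5 and Dbf4. Cdt1 and Gmnn thus stood above Orc2 in the DKO mean levels and below Orc5 in the TKO mean levels, while Orc1 and Dbf4 were the lowest in both groups. The lengths used count all annotated exons, from 1465 bp for Gmnn to 8728 bp for Dbf4. The order of genes within a group therefore depends on the annotation.

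Ratios of 2 genes within a library do not depend on the scaling of libraries. The log2 ratio of Orc1 to the sum of Orc2 to Orc5 had a mean of -6.63 ± 0.36 in the 3 TKO and -5.42 ± 0.35 in the 3 DKO retinae (SD), which differ by -1.20. For Orc6 to that sum it was -3.41 ± 0.27 and -2.60 ± 0.16, a difference of -0.81. Relative to the core, Orc1 and Orc6 were therefore lower in every TKO retina than in any DKO retina. Dbf4 relative to Cdc7, the kinase it activates, was at -4.41, -3.60 and -3.74 in TKO replicates 1, 2 and 3 and at -1.77, -1.68 and -2.26 in DKO replicates 1, 2 and 3, a difference of -2.01. Cdc7 itself had 637 ± 130 and 827 ± 182 normalized counts (adjusted p = 0.202 from edgeR), so the mRNAs of the kinase and its activator differed unequally. Cdt1 to Gmnn was at 0.42, 1.42 and 1.45 in the TKO and 1.20, 1.13 and 1.28 in the DKO retinae. The mRNAs of the licensing factor and its inhibitor thus kept overlapping ratios, with TKO replicate 1 alone below the others. The difference of -0.11 became 0.23 without that retina. Smaller differences were found for Cdc6 to Orc1 (-0.57, or -0.16 without TKO replicate 1), Orc1 to Orc6 (-0.39) and Cdc6 to Cdt1 (-0.33). For 6 of the 7 ratios the groups did not overlap and the exact two-sided permutation test gave p = 0.1, the smallest that 3 retinae against 3 allow (adjusted p = 0.117 over the 7 ratios). Some were barely apart. The closest TKO and DKO retinae were at -3.09 and -3.05 for Orc1 to Orc6, and at 2.63 and 2.68 for Cdc6 to Orc1. For Cdc6 to Cdt1 they were at -0.47 and -0.42. Ratios with Orc1 also rest on few reads. How often other pairs of genes separate was not computed. For Cdt1 to Gmnn the exact permutation test gave p = 1.0.

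**Figure D3:**
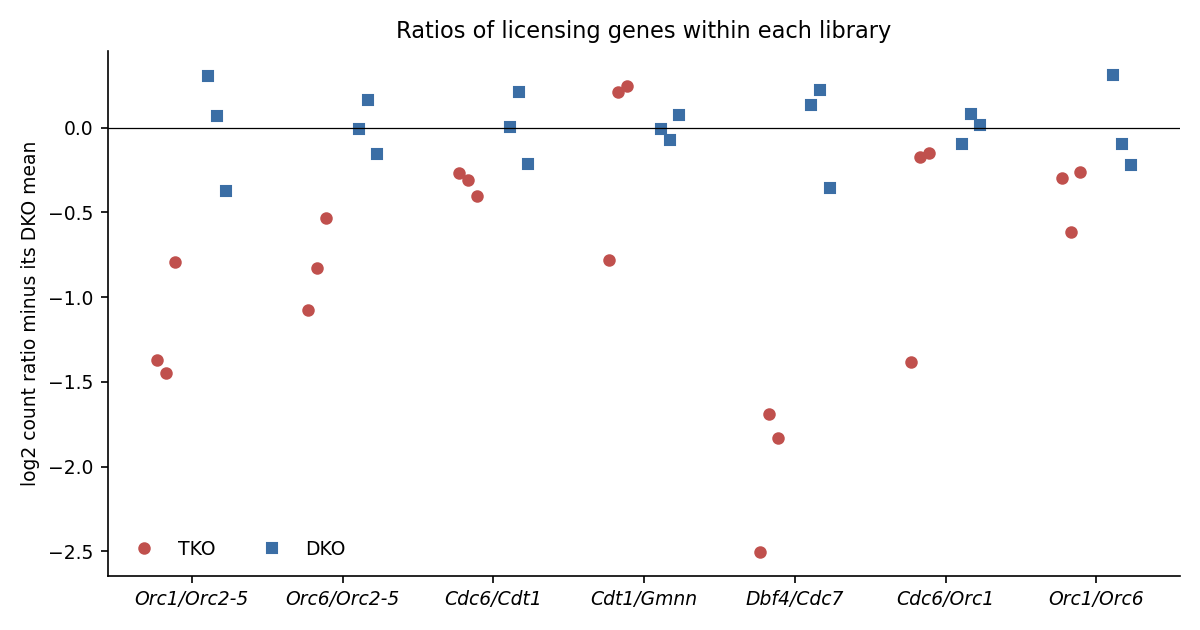
Log2 count ratios of 1 gene to another within each library, drawn relative to the DKO mean of that ratio (TKO red circles, DKO blue squares, n = 3 each). Dbf4 to Cdc7 shows the widest separation (-2.01), and only Cdt1 to Gmnn overlaps between the groups.

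The mRNAs of the MCM helicase, which the licensing factors load, were lower for every subunit. All 6 subunits were called lower, with log2 fold changes of -2.12 for Mcm6, -1.91 for Mcm3, -1.74 for Mcm5, -1.59 for Mcm2, -1.33 for Mcm7 and -1.28 for Mcm4 (adjusted p from edgeR between 0.00833 and 0.0172). Their summed normalized counts were 1679, 2453 and 3998 for TKO replicates 1, 2 and 3 against 9743, 9154 and 6594 for DKO replicates 1, 2 and 3. This sum had the same order of retinae as Cdc6 and Cdt1. The median log2 fold change of the MCM subunits was -1.66, against -0.11 for the 6 subunits of the origin recognition complex and -0.01 for all genes. Over all genes tested, 4.38% were called lower. Without TKO replicate 2, 2 of the 6 subunits were called, and 4 were called when DKO replicate 1 or DKO replicate 2 was left out.

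Of 12 genes of helicase activation and origin firing, 7 were called lower, against 4.38% of all genes tested, and 0 higher. The median log2 fold change of the 12 was -1.14. The 7 were Ticrr (-2.39), Gins1 (-1.998), Mcm10 (-1.60), Topbp1 (-1.47), Cdc45 (-1.41), Gins3 (-1.16) and Gins2 (-1.11). Ticrr and Topbp1 act in recruiting Cdc45 to loaded MCM, and the Gins genes encode subunits of the complex that completes the active helicase. Gins4, the other subunit of that complex, had 201 ± 9.17 and 219 ± 19.9 normalized counts (adjusted p = 0.524 from edgeR). Donson (-0.40), Recql4 (-0.91), Mtbp (-0.65) and Cdc7 did not pass the test either. The number called was 2 when TKO replicate 2 was left out and 3 when DKO replicate 1 or DKO replicate 2 was. Those 3 fits called 312, 360 and 350 of all genes lower, against 741 with every retina.

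Of 15 genes that control the turnover and cell cycle timing of licensing factors, 7 were called lower, against 4.38% of all genes tested, and 0 higher. The median of the 15 was -0.90. The cyclin-dependent kinases Cdk1 (-2.68) and Cdk2 (-1.75), the cyclins Ccna2 (-1.32) and Ccne1 (-1.17), and Fbxo5 (-1.51), which encodes an inhibitor of the anaphase-promoting complex, were among the 7 called. So were Dtl (-2.13) and Skp2 (-1.15), the substrate receptors that mark Cdt1 for degradation, whereas the core ligase genes that they work with were not called. Of those, Ddb1 had 9599 ± 1000 and 7497 ± 461 normalized counts (log2 fold change 0.36, adjusted p = 0.0564 from edgeR), Cul1 was at -0.10 and Skp1a at -0.10. The number called was 2 when any 1 of TKO replicate 2, DKO replicate 1 and DKO replicate 2 was left out.

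Of 7 partners of the origin recognition complex or MCM on chromatin, none was called. By the adjusted p alone, Kmt5a, a histone H4 methyltransferase listed as Setd8, was lower (-0.51, adjusted p = 0.0218 from edgeR), as was Mcmbp, an MCM-binding protein (-0.43, adjusted p = 0.0153 from edgeR). Kmt5c, another H4 methyltransferase, listed as Suv420h2, was higher (0.40, adjusted p = 0.02001 from edgeR). Kat7 (0.03), Kmt5b (0.16, listed as Suv420h1), Rif1 (-0.13) and Lrwd1 (-0.05) did not pass the test. Of the geminin relatives, Mcidas, a regulator of multiciliated cells, had 3.44, 9.47 and 8.59 normalized counts in the TKO and 32.9, 25.4 and 24.2 in the DKO retinae and was called lower (-1.92, adjusted p = 0.0173 from edgeR). Gmnc was at 0 in 5 of the 6 libraries and was not tested.

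**Figure D4:**
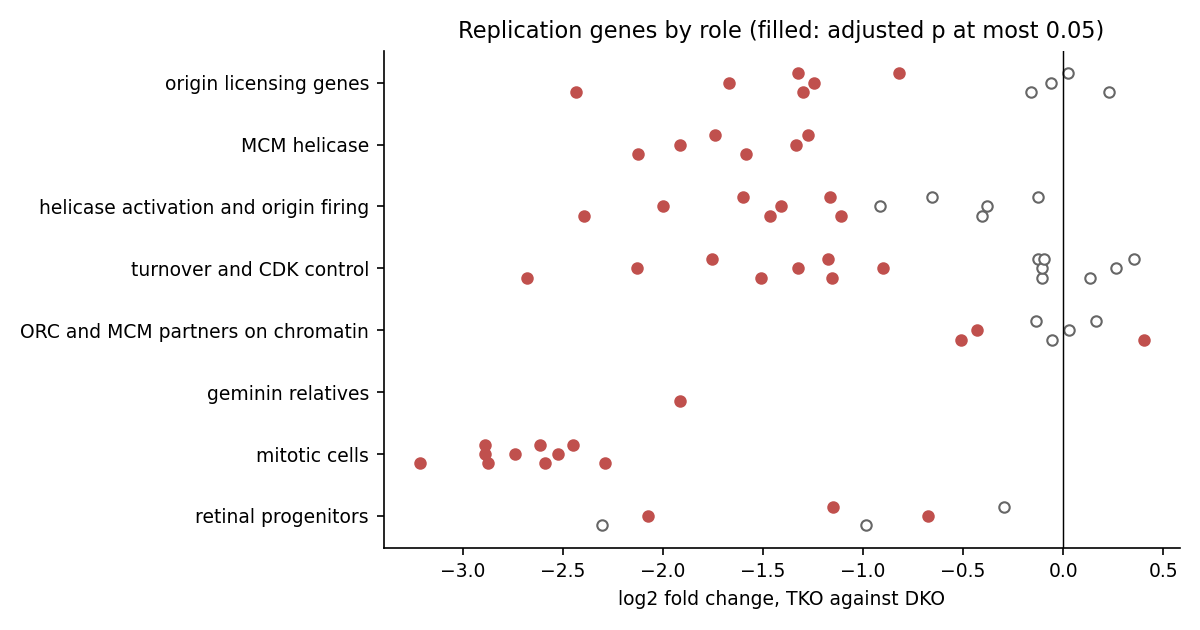
Log2 fold change of TKO against DKO (horizontal axis) for each tested gene, grouped by role, where filled points had an adjusted p of at most 0.05 and open points did not. All 6 MCM subunits and all 10 mitotic markers lie at or below -1.28, whereas the chromatin partners lie between -0.51 and 0.40.

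For each called gene, the genes closest in their pattern over the 6 libraries were sought, leaving out the other licensing genes. No reference distance was computed, so the values do not say how unusual such likeness is. Among 11648 genes with a mean of at least 100 normalized counts, likeness was the root mean square difference of centred log2 library-scaled counts. The nearest gene was Cdk2 for Cdc6 (0.0556), Ect2 for Dbf4 (0.0755), Cdc25b for Orc1 (0.0658), Gpr56 for Gmnn (0.0396) and Cchcr1 for Cdt1 (0.0835). The second nearest were Ung for Cdc6 (0.0844), Ccnb2 for Dbf4 (0.0966), Zgrf1 for Orc1 (0.0778), Nasp for Gmnn (0.0714) and Matn2 for Cdt1 (0.151). Cdt1 was thus the gene of the 5 with the least close second neighbor.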

How the data were processed

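RNA-seq counts of 6 retinae were analysed, 3 in the TKO and 3 in the DKO group. The authors prepared stranded mRNA libraries and deposited raw read counts on each gene symbol, without normalization. The study's methods name STAR and HTSeq, with reads allowed more than 1 alignment, while the submitters' processing notes name TopHat2, featureCounts and DESeq2, and both give GRCm38. The strand setting of the counting is not given in the sources used here.

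Genes with a sum under 10 were removed. The groups were compared with edgeR 4.0.16 in R 4.3.3 (TMM, quasi-likelihood F test) and Benjamini-Hochberg adjustment over 16904 genes. A called gene also met the study's minimum fold change and mean count, the latter with DESeq2's size factors. The fit was tested on simulated counts with a single dispersion for all genes, which does not measure its error at the spread of these retinae. Ratios used counts plus 0.5. Positions and exon lengths come from a GENCODE annotation of GRCm38. The depth of 10343907 to 14203098 counts per library limits precision most for Orc1.

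Named genes were the 10 genes, the called genes and the 3 most abundant of each list, the targeted genes, the top gene of marker lists whose sums were apart, and the nearest neighbors. Marker lists of cones, bipolar, amacrine, horizontal and endothelial cells and RPE had overlapping sums, with 2 cone genes (of 6) and 1 RPE gene (of 6) called higher and 0 called in the others. The rule for the 10 genes uses no measured value, but the genes and lists were chosen with earlier results of these data known. DESeq2 1.42.0, 3 other scalings, 3 other filters, robust dispersion, the replicate number as a block, other thresholds and each retina left out were alternatives. The labels do not say whether equal replicate numbers pair retinae, so the main fit had no block.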

Additional observations from a re-analysis of the deposited data

How the results depend on the processing

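Of the 10 licensing genes, 5 were called lower under DESeq2, the 3 other scalings and the 3 other filters, and 4 with robust dispersion estimates, where Cdt1 missed. Leaving out 1 retina gave 1 to 5 called, 1 to 6 by adjusted p alone, and 312 to 1024 of all genes. An adjusted p of at most 0.01 left 1 gene by either count, Dbf4, and 292 of all genes, and without the minimum fold change 1496 of all genes were called. Same-numbered retinae did not deviate together (correlations 0.0601, -0.0495 and -0.206). With 3 retinae in each group these correlations cannot exclude that same-numbered retinae shared a litter or a batch. With the replicate number as a block, 0 of the 10 were called and 0 passed the adjusted p (edgeR, 0.0566 to 0.111 for the 6 genes). In that fit 7 of the 10 had an unadjusted p under 0.05 (edgeR), counted in either direction. They were the 6 lower genes and Orc4, which was higher in TKO retinae (0.23). The share of all genes under that unadjusted p was not computed. The fit called 75 of all genes lower. None of the listed MCM, origin firing and turnover genes was called with the block. The sign of Orc5 changed with upper-quartile scaling (-0.0085), library totals (-0.14), without TKO replicate 1 (-0.0355) and without DKO replicate 3 (-0.0651), and its fits without 1 retina ranged from -0.0651 to 0.0817. The Cdt1 to Gmnn ratio ranged from -0.28 to 0.23 with 1 retina left out. With 3 retinae in each group, calls moved with single retinae, and Orc1 also had few reads, 19 to 82 in a library.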
